A study of Caenorhabditis elegans with 6 samples.

Results

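The loss of hrde-1 was measured in worms that already lacked MEG-3 and MEG-4. Small RNAs of a triple mutant, which has hrde-1(tm1200) together with the alleles meg-3(ax3055) and meg-4(ax3052), were set against those of a strain with the 2 meg alleles alone, JH3745 outcrossed, called meg-3 meg-4 here. Each strain had 2 libraries, so 4 of the 6 libraries in the series enter the comparison, chosen because a single deposited table holds both strains. The remaining 2 libraries, of the hrde-1(tm1200) single mutant, are given beside them where stated. Both strains carry the same meg-3 and meg-4 alleles, and the labels do not say whether the triple mutant was outcrossed or how many worms made up a library. All worms were whole animals at the young mother stage, synchronized by starvation and kept at 20 °C on HT115 bacteria with the L4440 vector, a feeding strain and plasmid used for RNA interference. TRIzol extracts went through a 5′ polyphosphatase step ahead of the adapters of a TruSeq small RNA kit. The title of the series speaks of small RNAs that meg-3 meg-4 worms make against rde-11 and sid-1, and the question of this comparison is how their level differs once hrde-1 is lost as well.

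HRDE-1 is an Argonaute of the germ line that binds secondary small interfering RNAs, enters the nucleus and takes part in the silencing of the matching genes, a state that can be passed to the progeny. The secondary small RNAs, 22G-RNAs, are made by RNA-dependent RNA polymerases on target transcripts and carry a 5′ triphosphate, which the polyphosphatase trims so that an adapter can be joined. MEG-3 and MEG-4 are disordered proteins that scaffold P granules in the germ plasm of embryos. P granules are condensates, found there and next to germ cell nuclei, where Argonautes and their RNAs gather. A small RNA value at a gene is therefore a measure of the small RNAs made against or from that gene, not of its messenger RNA.

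The triple mutant libraries held 6780320 and 2384147 reads at annotated loci, and those of meg-3 meg-4 held 5628602 and 5115457, as recovered from the deposited signal. One read stood for a signal between 0.155 and 0.424. The 2 triple mutant libraries resembled each other more closely (SD of their log2 differences 0.44 over 6067 loci) than the 2 meg-3 meg-4 libraries did (0.69). In meg-3 meg-4 replicate 2 the summed signal of the yolk protein genes stood at 3116, against 252 in replicate 1, and results that rest on this library are given with and without it. Nothing in the labels says that the 2 libraries of a strain came from separate cultures, so p-values measure the spread between these libraries, which may be technical. In whole worms, fewer cells of a type and fewer small RNAs per cell cannot be told apart. At meg-3 (listed under its earlier name gei-12, F52D2.4) the triple mutant held 0 and 0 reads against 2 and 3 in meg-3 meg-4. No library of either strain held a read at meg-4 (C36C9.1), where a count of 0 allows up to 3 reads in each library, by counting error alone. At hrde-1 (C16C10.3) the triple mutant held 1944 and 633 reads, against 3640 and 3096 in meg-3 meg-4, and was not called (log2 fold change −1.0, limma adjusted p = 0.0856). The part of hrde-1 that tm1200 removes is not given in the labels, so this locus does not check the genotype.

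Across 6067 loci with a mean signal of at least 10, 470 differed between the strains (7.75%), of which 261 were higher in the triple mutant (4.3%) and 209 lower (3.44%). A locus counts as called where the Benjamini-Hochberg adjusted p from limma, fitted to log2(signal + 1), is under 0.05. With library totals in place of the deposited scaling the split was 167 higher and 188 lower, so which direction held more calls depended on the scaling. The 4 values at every one of the 470 called loci fell into groups that do not overlap, which also held at 43.5% of all loci tested. Rises had a median log2 fold change of 1.83 and reached 5.52. Falls had a median of −1.88 and reached −6.45. A change of at least 3 on the log2 scale was seen at 44 rises and 36 falls, and the median of all loci tested was −0.11. The share of loci called grew with the level. It was 5.05% at mean signals from 10 to 50, 10.4% from 50 to 200, 20.8% from 200 to 1000 and 28.3% above 1000, where 30 loci were higher and 9 lower. Of the calls, 77 rises (1.27% of loci tested) and 67 falls (1.1%) were made in all 4 fits that left out 1 library each, together 144 loci (2.37%). A fit without 1 library of a strain takes the spread within strains from the other strain's 2 libraries alone. That spread was smaller in the triple mutant (SD of log2 differences 0.44) than in meg-3 meg-4 (0.69). More loci were called without a meg-3 meg-4 library than without a triple mutant library. A call lost in such a fit does not by itself show that a locus rests on the library left out. The authors' deposited table of the same libraries called 514 of 11871 loci (4.33%), 284 higher (2.39%) and 230 lower (1.94%), and 415 of these were called by limma in the same direction. On the recovered reads edgeR called 517 loci (4.42%) and DESeq2 514.

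**Figure D1:**
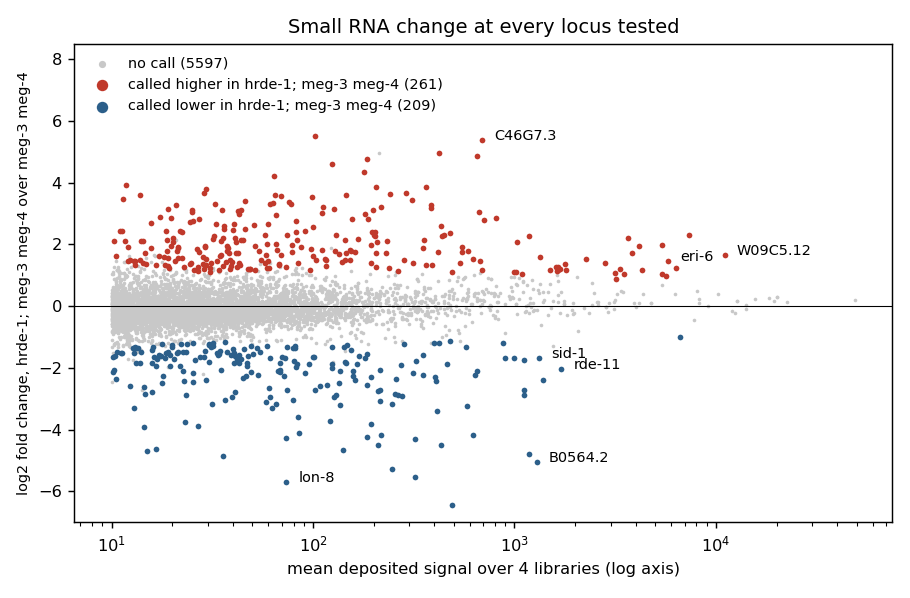
Log2 fold change (vertical axis, triple mutant over meg-3 meg-4) against the mean deposited signal over the 4 libraries (horizontal axis, log scale) for the 6067 loci tested, with the 261 loci called higher in red, the 209 called lower in blue and the other loci in grey. Most called loci with a mean above 1000 lie above 0, where 30 were higher and 9 lower.

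Small RNAs at both genes of the title were lower in the triple mutant. RDE-11 is a factor that helps to amplify secondary small RNAs during RNA interference. At rde-11 (B0564.11) the deposited signal was 626 and 692 in the triple mutant against 2324 and 3187 in meg-3 meg-4 (log2 fold change −2.05, SE 0.30, limma adjusted p = 2.7e-04). The 2 values of the triple mutant were close to each other and far under either value of meg-3 meg-4. SID-1 is a membrane channel for double-stranded RNA that lets the silencing signal enter cells. Its locus (C04F5.1) had a signal of 641 and 579.6 in the triple mutant against 1475 and 2590.5 in meg-3 meg-4 (log2 fold change −1.68, SE 0.33, limma adjusted p = 0.00328). At both genes the groups did not overlap, as at every called locus and at 43.5% of all loci tested. Both calls were made in every alternative run, a crossed pairing of the replicate numbers included.

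The fall at rde-11 extended to the gene beside it and to no other tested neighbour. B0564.2, a protein-coding gene on the same strand with no annotated gene between it and rde-11, had a signal of 80.7 and 67.8 in the triple mutant against 2097 and 2922 in meg-3 meg-4 (log2 fold change −5.05, SE 0.34, limma adjusted p = 2.1e-07). The triple mutant values were thus close together and far under those of meg-3 meg-4, and the fall at B0564.2 was larger than that at rde-11 itself. On the other side of rde-11, B0564.7 (later named fask-1) had 66.2 and 72.5 in the triple mutant against 77.5 and 77.3 in meg-3 meg-4 and no call (log2 fold change −0.16, SE 0.34, limma adjusted p = 0.893). The spans of best-1 and best-2, members of the bestrophin channel family, overlap B0564.2 on the other strand, and both held a signal under 3 in all 4 libraries. The nearest tested neighbour of sid-1, C04F5.9, had 36 and 34.7 in the triple mutant against 30.6 and 36.8 in meg-3 meg-4 and no call (log2 fold change 0.07, SE 0.32, limma adjusted p = 0.95), and C04F5.8, F14F9.5, F14F9.8 and F14F9.4 were too low to be tested. Whether strand was used in counting is not given in the sources used here, so for overlapping genes and for families of near-identical copies it is uncertain which gene the reads came from. Of the called loci 34.5% overlap another gene in the reference annotation, against 35.5% of the loci tested.

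**Figure D2:**
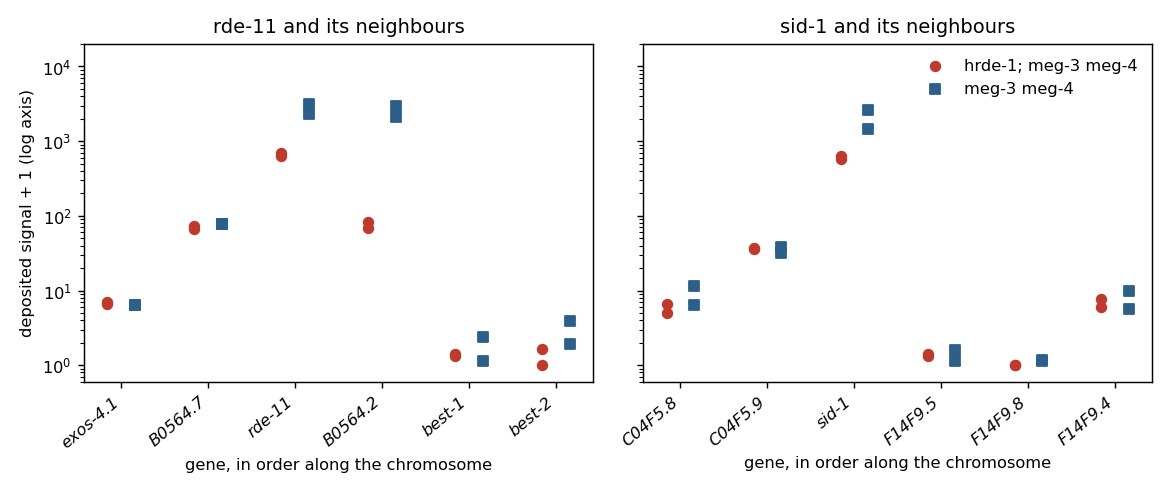
Deposited signal + 1 (vertical axis, log scale) at rde-11 (left) and sid-1 (right) and at their neighbours in order along the chromosome, with 1 point per library, triple mutant in red circles and meg-3 meg-4 in blue squares. At rde-11, B0564.2 and sid-1 both triple mutant points lie below both meg-3 meg-4 points, while at B0564.7 and C04F5.9 the fit made no call.

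Among the 12 largest falls with a mean signal of at least 50 were genes for body size, a zinc finger protein and several unnamed proteins. Small RNAs at lon-8, which encodes a secreted regulator of body length, came close to 0, with 1.96 and 1.69 in the triple mutant against 133 and 157 in meg-3 meg-4 (log2 fold change −5.69, SE 0.33, limma adjusted p = 1.5e-07). The 2 libraries of each strain were close to each other there, and the level in the triple mutant was near that of a few reads. Y55F3AM.14, later named znf-782 for its zinc fingers, had a signal of 10.8 and 11.9 in the triple mutant against 470.1 and 489 in meg-3 meg-4 (log2 fold change −5.29, SE 0.34, limma adjusted p = 2.1e-07). H25P19.1, a protein-coding gene without a name, had 90.6 and 73.3 in the triple mutant against 2005 and 2556 in meg-3 meg-4 (log2 fold change −4.78, SE 0.33, limma adjusted p = 2.4e-07). Here as well no value of one strain came near a value of the other. The largest fall of all was at Y53F4B.17, with 4.56 and 16.9 in the triple mutant against 550.4 and 1387 in meg-3 meg-4 (log2 fold change −6.45, SE 0.52, limma adjusted p = 1.0e-06). The libraries of each strain differed more from each other at this gene than at lon-8 or H25P19.1, and its span overlaps Y53F4B.18 on the other strand, which had 7.82 and 9.32 in the triple mutant against 139 and 410.0 in meg-3 meg-4 (log2 fold change −4.65, SE 0.44, limma adjusted p = 4.4e-06). C18H2.1, later named lido-18, had 34.7 and 36 in the triple mutant against 729.9 and 935 in meg-3 meg-4 (log2 fold change −4.51). The other members of the 12 were Y55B1BR.5 (−5.54, not matched in the reference), F41G4.7 (−4.51), K09B11.4 (−4.30), the pseudogene F47B7.6 (−4.27), Y105E8A.1 (−4.25) and B0564.2. That all 12 were called in each of the 4 fits that left out a library follows from this choice.

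The 12 largest rises, chosen by the same rule as the falls, included an F-box gene, a gene of the cuticle and a gene of the cilium. A rise at col-111 (log2 fold change 3.86) exceeded some of these but did not meet the rule. At fbxa-125, which encodes an F-box protein of a large family of putative ubiquitin ligase adaptors, the signal was 906 and 723 in the triple mutant against 14.3 and 42 in meg-3 meg-4 (log2 fold change 4.98, SE 0.44, limma adjusted p = 2.5e-06). At bbs-4, which encodes a subunit of the BBSome, the coat that carries membrane proteins in cilia, it was 254 and 286 in the triple mutant against 21.1 and 20.9 in meg-3 meg-4 (log2 fold change 3.62, SE 0.34, limma adjusted p = 4.4e-06). The 2 strains were far apart at both genes, and at bbs-4 the libraries of a strain were nearly equal. At cutl-14, a cuticlin-like gene of the cuticle, the signal was 45.8 and 203 in the triple mutant against 3.26 and 5.42 in meg-3 meg-4 (log2 fold change 4.22, SE 0.51, limma adjusted p = 5.3e-05), with the triple mutant libraries well apart from each other but both above meg-3 meg-4. The largest rise was at ZC15.1, with 172 and 229 in the triple mutant against 4.66 and 2.32 in meg-3 meg-4 (log2 fold change 5.52, SE 0.36, limma adjusted p = 2.1e-07). C46G7.3 had 1508 and 1178 in the triple mutant against 23.3 and 40.9 in meg-3 meg-4, and Y48G1BM.4 had 1283 and 1248 in the triple mutant against 43.6 and 41.6 in meg-3 meg-4. Neither of these loci was matched in the reference, and both stood above 1000 in both triple mutant libraries and below 50 in both meg-3 meg-4 libraries. The log2 fold change was 5.39 at C46G7.3 and 4.86 at Y48G1BM.4. The other rises of this group were C34C12.1 (4.77), ZK228.2 (4.62), T23B12.9 (4.34), C03D6.1 (3.87), R102.4 (3.67) and Y54F10BM.13 (3.64). C34C12.1 and Y54F10BM.13 overlap a neighbour on the same strand, and C03D6.1 overlaps cel-1 and rpl-24.2 on the other. By the rule of choice all 12 were called whichever library was left out. R102.4 was however not called by DESeq2 or with scaling to library totals, and its adjusted p in the authors' deposited table was 0.123.

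**Figure D3:**
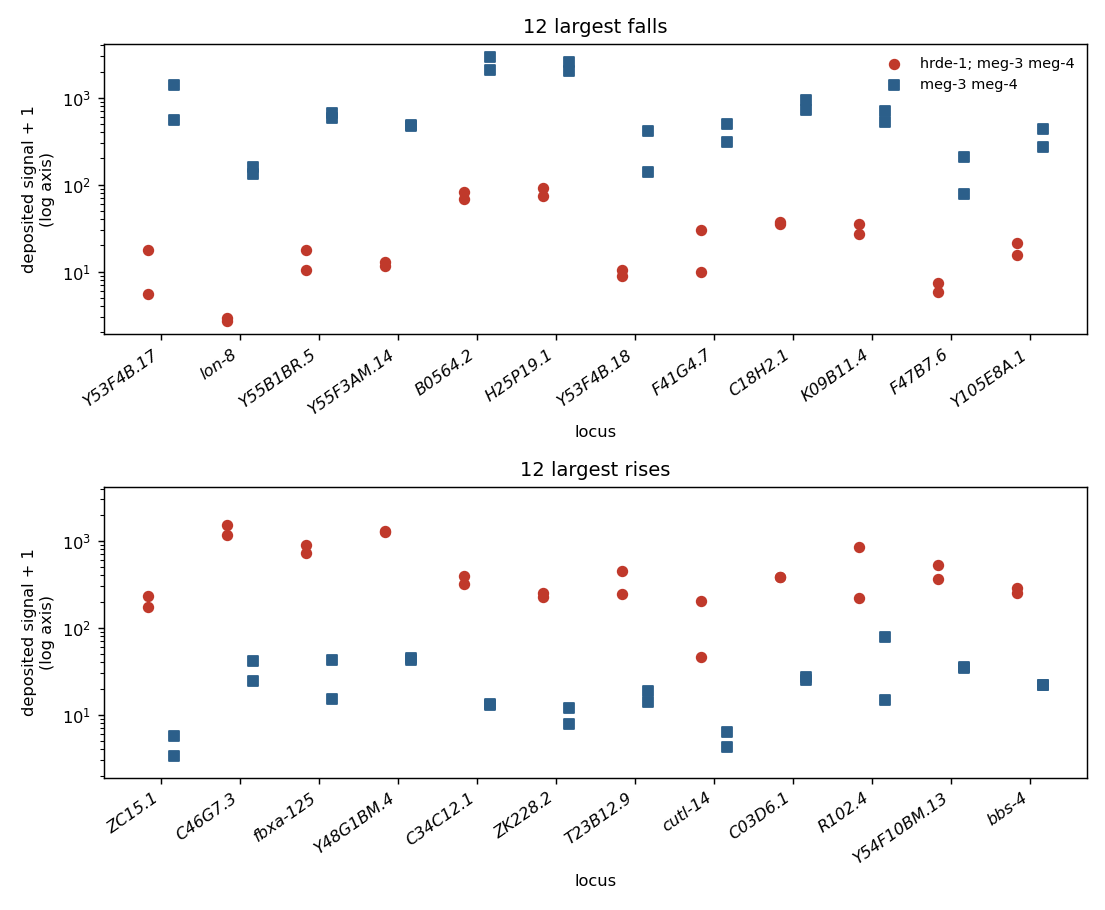
Deposited signal + 1 (vertical axis, log scale) in each library at the 12 largest falls (top) and the 12 largest rises (bottom), in order of size from the left, with triple mutant libraries as red circles and meg-3 meg-4 libraries as blue squares. The loci were chosen among those called in every fit without 1 library and with groups that do not overlap. By this choice no point of one strain overlaps those of the other. The 2 triple mutant points lie farthest apart at cutl-14, R102.4 and Y53F4B.17.

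The called loci with the highest raw signal, which is not corrected for gene length, were mostly higher in the triple mutant. W09C5.12, a protein-coding gene without a name, had 17189.8 and 16404 in the triple mutant against 4665 and 6006 in meg-3 meg-4 (log2 fold change 1.67, SE 0.21, limma adjusted p = 7.9e-05). At B0250.8 the signal was 13084 and 11374 in the triple mutant against 2121 and 2875 in meg-3 meg-4 (log2 fold change 2.30, SE 0.24, limma adjusted p = 1.4e-05). Both genes were higher in both triple mutant libraries by a wide margin. The gene fkb-8, which encodes a prolyl isomerase of the FK506-binding family, had 8742 and 8503 in the triple mutant against 2051 and 2365 in meg-3 meg-4 (log2 fold change 1.97, SE 0.24, limma adjusted p = 4.8e-05). The helicase gene eri-6, whose product limits RNA interference, had 8122 and 8849 in the triple mutant against 2994 and 3183 in meg-3 meg-4 (log2 fold change 1.46, SE 0.23, limma adjusted p = 5.6e-04). Its span overlaps other genes on both strands, among them sosi-1 and linc-104. Rises among these loci were also called at Y71A12B.10 (1.23), F37D6.3 (1.06) and the pseudogenes Y46H3C.6 (0.96) and Y37H9A.2 (1.18). Y71A12B.10 was called in 13 of 14 alternatives. The adjusted p in the authors' deposited table was 0.0847 at Y46H3C.6. Y46H3C.6, F37D6.3 and Y37H9A.2 were not called without replicate 1 of the triple mutant (limma adjusted p = 0.156, 0.0638 and 0.135), and Y46H3C.6 and F37D6.3 not without replicate 2 of the triple mutant (limma adjusted p = 0.0926 and 0.0903). Y46H3C.6 was not called without replicate 1 of meg-3 meg-4 (limma adjusted p = 0.0875). Among the falls of highest signal, the long noncoding RNA linc-29 had 4864 and 3974 in the triple mutant against 7357 and 10346 in meg-3 meg-4 (log2 fold change −0.99, SE 0.24, limma adjusted p = 0.0169). Its adjusted p in the authors' deposited table was 0.0675. The gene rnh-1.3, for an RNase H that cleaves RNA in RNA-DNA hybrids, had 252 and 331 in the triple mutant against 1592 and 2292 in meg-3 meg-4 (log2 fold change −2.72, SE 0.33, limma adjusted p = 4.8e-05). T23B12.10, not matched in the reference, had 430.3 and 441 in the triple mutant against 1909 and 2761 in meg-3 meg-4 (log2 fold change −2.40). At all 3 loci both triple mutant libraries were the lower ones, as at every called fall. linc-29 was not called without replicate 2 of the triple mutant (limma adjusted p = 0.12), nor without replicate 2 of meg-3 meg-4 (limma adjusted p = 0.0793).

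Among genes of the small RNA and silencing machinery, calls were made at eri-6, rde-11 and sid-1 and at cec-8, lin-15B and ife-5. Of 73 tested RNA interference factors, 1 rose, eri-6, and 2 fell, rde-11 and sid-1, with a list median of −0.23. That is 4.11% of the list, against 7.75% of all loci tested (4.3% higher and 3.44% lower). RNA interference factor counts with replicate 1 and replicate 2 of the triple mutant and replicate 1 and replicate 2 of meg-3 meg-4 left out in turn were 1, 1, 2 and 2 higher and 3, 2, 4 and 8 lower, and 1 higher and 4 lower with scaling to library totals and 1 higher and 4 lower with scaling to miRNA reads. Of 11 Argonautes, 0 were called by limma, edgeR or DESeq2, and at an unadjusted p under 0.05 limma gave 0 higher and 1 lower, the lower one being hrde-1 itself. Argonaute counts with the libraries left out in that order were 0, 0, 1 and 2 lower, and 0 higher and 1 lower with scaling to library totals and 0 higher and 1 lower with scaling to miRNA reads. Nuclear silencing factors, a list that spans heterochromatin proteins, histone methyltransferases and the synMuv genes, had 0 rises and 2 falls among 79 tested (2.53%). Nuclear silencing counts with the libraries left out in that order were 0, 0, 1 and 2 higher and 1, 1, 3 and 9 lower. Of the 2 falls, cec-8, for a chromodomain protein, had a signal of 6.03 and 11.4 in the triple mutant against 151 and 172 in meg-3 meg-4 (log2 fold change −4.12, SE 0.36, limma adjusted p = 2.4e-06), and both triple mutant libraries lay far under meg-3 meg-4. The second was lin-15B, a synMuv gene that opposes germ line expression in somatic cells, with 4.07 and 6.36 in the triple mutant against 15.7 and 16.3 in meg-3 meg-4 (log2 fold change −1.47, SE 0.43, limma adjusted p = 0.0493). Its span overlaps lin-15A on the same strand, and lin-15B was not called without replicate 1 of the triple mutant (limma adjusted p = 0.664), nor without replicate 2 of the triple mutant (limma adjusted p = 0.188). lin-15B was high enough to be tested only with both libraries of meg-3 meg-4 included. P granule and MEG genes had 1 rise of 28 (3.57%), at ife-5, a cap-binding eIF4E of the germ line, with 57.4 and 66.9 in the triple mutant against 19.7 and 26.9 in meg-3 meg-4 (log2 fold change 1.39, SE 0.33, limma adjusted p = 0.0153). ife-5 was not called without replicate 1 of the triple mutant (limma adjusted p = 0.239), nor without replicate 2 of the triple mutant (limma adjusted p = 0.467). P granule counts with the libraries left out in that order were 0, 0, 2 and 1 higher and 0, 0, 0 and 1 lower, and 0 higher and 0 lower with scaling to library totals and 0 higher and 0 lower with scaling to miRNA reads. Of 10 tested HRDE-1 targets, a list written from memory, 2 rose and 3 fell. The falls were at F15D4.5, with 289.9 and 236 in the triple mutant against 1695 and 2242 in meg-3 meg-4 (log2 fold change −2.89, SE 0.32, limma adjusted p = 2.1e-05), at its neighbour F15D4.6 (−2.66) and at C38D9.2, with 57.5 and 72 in the triple mutant against 464 and 518 in meg-3 meg-4 (log2 fold change −2.91, SE 0.34, limma adjusted p = 4.0e-05). These 3 falls were called whichever library was left out. The rises were at eri-6 and bath-20, which had 4433 and 4100.1 in the triple mutant against 1859 and 2204 in meg-3 meg-4 (log2 fold change 1.07). bath-20 was not called without replicate 1 of the triple mutant (limma adjusted p = 0.265), nor without replicate 2 of the triple mutant (limma adjusted p = 0.155). HRDE-1 target counts with the libraries left out in that order were 1, 1, 2 and 2 higher and 3, 3, 4 and 3 lower. The 11 tested ERGO-1 targets, also listed from memory, had 0 calls by limma, edgeR or DESeq2 and 0 at an unadjusted p under 0.05. ERGO-1 target counts with the libraries left out in that order were 0, 0, 0 and 2 higher and 0, 0, 3 and 0 lower.

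Genes of cilia, cuticle and neuropeptides had more members higher than lower. Cilia in C. elegans are found on sensory neurons, and the motors and coats of this list move cargo along them. Of 15 tested cilium genes, 5 rose and 0 fell (median 0.96 against −0.11 over all loci), which is 33.3% called, beside 4.3% higher and 3.44% lower over all loci tested. Cilium gene counts with replicate 1 and replicate 2 of the triple mutant and replicate 1 and replicate 2 of meg-3 meg-4 left out in turn were 2, 3, 6 and 7 higher. The rises beside bbs-4 began with ift-20, for a subunit of the intraflagellar transport train, with 647 and 491 in the triple mutant against 50.8 and 51.1 in meg-3 meg-4 (log2 fold change 3.44, SE 0.35, limma adjusted p = 9.5e-06). The kinesin genes klp-20, with 766 and 399 in the triple mutant against 101 and 153 in meg-3 meg-4 (log2 fold change 2.14, SE 0.39, limma adjusted p = 0.00198), and osm-3, with 2526 and 2619 in the triple mutant against 1073 and 922 in meg-3 meg-4 (log2 fold change 1.37, SE 0.28, limma adjusted p = 0.00462), encode the motors of that transport. The fifth was bbs-5, a further BBSome subunit, with 16 and 23.3 in the triple mutant against 2.33 and 3.29 in meg-3 meg-4. In each of the 5 genes both triple mutant libraries were the higher ones, as at every called rise. Of these genes osm-3 was named after its values were seen. klp-20 and osm-3 were not called without replicate 1 of the triple mutant (limma adjusted p = 0.276 and 0.13), and osm-3 not without replicate 2 of the triple mutant (limma adjusted p = 0.164). bbs-5 (log2 fold change 2.43, limma adjusted p = 0.00321) was high enough to be tested only with both triple mutant libraries included. klp-20 overlaps hpo-38, also called higher, on the same strand. ift-20 overlaps spe-5 on the other strand.

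Of the cuticle collagens, 9 of 177 listed genes were high enough to be tested, and 3 rose and 0 fell (33.3% called, beside 4.3% higher and 3.44% lower over all loci tested). Collagen counts with replicate 1 and replicate 2 of the triple mutant and replicate 1 and replicate 2 of meg-3 meg-4 left out in turn were 2, 3, 1 and 3 higher and 0, 0, 2 and 0 lower, and 1 higher and 0 lower with scaling to library totals. At col-38 the signal was 36 and 39.8 in the triple mutant against 3.88 and 9.88 in meg-3 meg-4 (log2 fold change 2.42, SE 0.40, limma adjusted p = 9.0e-04), called whichever library was left out. At the other rises the 2 triple mutant libraries were far apart, with 1280.4 and 121 in the triple mutant against 23.1 and 29.8 in meg-3 meg-4 at col-111 (3.86) and 69.9 and 3.81 in the triple mutant against 1.24 and 0.968 in meg-3 meg-4 at col-121 (3.14). col-111 and col-121 were not called without replicate 1 of meg-3 meg-4 (limma adjusted p = 0.0745 and 0.185), nor without replicate 2 of meg-3 meg-4 (limma adjusted p = 0.0531 and 0.14). col-121 was high enough to be tested only with replicate 1 of the triple mutant included. The log2 fold change at col-111 was 2.16 with replicate 1 of the triple mutant left out, and that at col-121 was 5.08 with its replicate 2 left out. Cuticlins and cuticle enzymes had 3 rises and 0 falls among 10 tested (30%). Cuticlin counts with the libraries left out in that order were 1, 1, 3 and 3 higher and 0, 0, 1 and 1 lower. The rises beside cutl-14 were at nas-36, for an astacin protease needed for molting, with 867 and 863 in the triple mutant against 239.7 and 216 in meg-3 meg-4 (log2 fold change 1.92, SE 0.32, limma adjusted p = 9.6e-04), and at dpy-31, for a protease that processes collagen, with 1487 and 1465 in the triple mutant against 636 and 788 in meg-3 meg-4 (log2 fold change 1.06, SE 0.30, limma adjusted p = 0.0403). nas-36 and dpy-31 were not called without replicate 1 of the triple mutant (limma adjusted p = 0.0939 and 0.686), nor without replicate 2 of the triple mutant (limma adjusted p = 0.0844 and 0.644). Neuropeptide genes had 2 rises among 7, at flp-16 with 433 and 470.3 in the triple mutant against 139.7 and 211 in meg-3 meg-4 (log2 fold change 1.39, SE 0.35, limma adjusted p = 0.0198) and at nlp-12 with 20.2 and 43.2 in the triple mutant against 5.28 and 6.78 in meg-3 meg-4 (log2 fold change 2.13, SE 0.41, limma adjusted p = 0.00299), and 0 falls. flp-16 was not called without replicate 1 of the triple mutant (limma adjusted p = 0.473), and flp-16 and nlp-12 not without replicate 2 of the triple mutant (limma adjusted p = 0.611 and 0.348). Neuropeptide counts with the libraries left out in that order were 1, 0, 2 and 4 higher. Other neuronal genes had 1 rise, at the ligand-gated channel gene lgc-30 (121 and 120.3 in the triple mutant against 7.61 and 10.5 in meg-3 meg-4, log2 fold change 3.62), and 1 fall, at the octopamine receptor gene ser-3 (−1.51), among 19. ser-3 was not called without replicate 1 of the triple mutant (limma adjusted p = 0.216), nor without replicate 2 of the triple mutant (limma adjusted p = 0.451). ser-3 was high enough to be tested only with replicate 2 of meg-3 meg-4 included. Neuronal gene counts with the libraries left out in that order were 1, 1, 1 and 3 higher and 0, 0, 2 and 0 lower, and 1 higher and 0 lower with scaling to library totals.

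The F-box family was split. Of 66 tested members 7 rose and 12 fell, with a median of 0.04 (28.8% called, beside 4.3% higher and 3.44% lower over all loci tested). Large changes of opposite sign stood in this one family. fbxa-10 had 1638 and 1223 in the triple mutant against 174 and 216 in meg-3 meg-4 (log2 fold change 2.86, SE 0.33, limma adjusted p = 3.2e-05), and fbxa-60 had 195 and 86.4 in the triple mutant against 10.6 and 12.6 in meg-3 meg-4 (log2 fold change 3.38, SE 0.39, limma adjusted p = 3.2e-05). fbxa-166 had 3.58 and 1.27 in the triple mutant against 34.5 and 53.1 in meg-3 meg-4 (log2 fold change −3.76, SE 0.44, limma adjusted p = 4.0e-05), and fbxa-115 had 8.64 and 5.93 in the triple mutant against 60.6 and 71.5 in meg-3 meg-4 (log2 fold change −3.03, SE 0.33, limma adjusted p = 2.1e-05). All 4 of these genes, as well as fbxa-125, were called whichever library was left out, with 5 rises and 2 falls of the family in all. The family counts were 5 higher and 3 lower without replicate 1 of the triple mutant, 6 higher and 3 lower without replicate 2 of the triple mutant, 7 higher and 16 lower without replicate 1 of meg-3 meg-4 and 16 higher and 13 lower without replicate 2 of meg-3 meg-4. Many F-box genes are near-identical copies, for which the handling of reads with several positions is not given. BATH and MATH genes, which like F-box genes encode putative adaptors of ubiquitin ligases, had 4 rises and 1 fall among 35 tested (14.3%). BATH and MATH counts with replicate 1 and replicate 2 of the triple mutant and replicate 1 and replicate 2 of meg-3 meg-4 left out in turn were 1, 3, 4 and 7 higher and 0, 0, 5 and 3 lower, and 3 higher and 2 lower with scaling to library totals and 3 higher and 2 lower with scaling to miRNA reads. Among the rises were bath-20, math-44 (2.08) and math-31, and the fall was at bath-2 (−1.59). The rise at math-49 was the only one of the 4 that was called whichever library was left out, with 211 and 186 in the triple mutant against 18.9 and 29.6 in meg-3 meg-4 (log2 fold change 3.01, SE 0.36, limma adjusted p = 4.0e-05). At math-31, with 172 and 6.36 in the triple mutant against 1.40 and 3.68 in meg-3 meg-4 (3.41), the level of the triple mutant rested on replicate 1, and the log2 fold change was 5.69 without its replicate 2. bath-20, bath-2 and math-44 were not called without replicate 1 of the triple mutant (limma adjusted p = 0.265, 0.139 and 0.0641), and bath-20 and bath-2 not without replicate 2 of the triple mutant (limma adjusted p = 0.155 and 0.141). math-31 was not called without replicate 1 of meg-3 meg-4 (limma adjusted p = 0.299), nor without replicate 2 of meg-3 meg-4 (limma adjusted p = 0.111). math-31 was high enough to be tested only with replicate 1 of the triple mutant included.

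Yolk protein genes were lower in the triple mutant by an amount that rested largely on 1 library, and 5 of the ribosomal protein genes fell. Vitellogenins are the yolk proteins that the intestine makes for the oocytes. Of the 6 genes 5 fell and 0 rose (median −2.96, beside 4.3% higher and 3.44% lower over all loci tested), with summed signals of 136 and 72 in the triple mutant against 252 and 3116 in meg-3 meg-4. At vit-6 the signal was 51.7 and 25.8 in the triple mutant against 106 and 1467 in meg-3 meg-4 (log2 fold change −3.40, SE 0.79, limma adjusted p = 0.0116), and at vit-2 32.9 and 19.5 in the triple mutant against 64.3 and 864 in meg-3 meg-4 (−3.17). With replicate 2 of meg-3 meg-4 left out the log2 fold change was −1.51 at vit-6 and −1.31 at vit-2, and 3 members were called lower. With replicate 1 of that strain left out instead it was −5.29 at vit-6 and −5.04 at vit-2. edgeR called 5 and DESeq2 0, and library totals gave 0. A few muscle markers were likewise high in that library. The summed signal of 4 body wall muscle markers (unc-54, myo-3, unc-22 and unc-15) was 10.1 and 7.63 in the triple mutant against 15.8 and 125 in meg-3 meg-4, with 0 of 2 tested members called by limma and 0 higher and 2 lower at an unadjusted p under 0.05, while edgeR and DESeq2 each called 1 lower. The longer list of muscle and sarcomere genes summed to 2256 and 1958 in the triple mutant against 1602 and 2162 in meg-3 meg-4. The part of that library in the falls of other genes was not tested beyond leaving it out. Ribosomal protein genes had 0 rises and 5 falls among 63, with a median of −0.84, and 58 were not called. At rpl-38 the signal was 8.96 and 8.90 in the triple mutant against 28.6 and 35.2 in meg-3 meg-4 (log2 fold change −1.72, SE 0.34, limma adjusted p = 0.00348). The lower count was 0 with either triple mutant library left out, 19 without replicate 1 of meg-3 meg-4 and 6 without replicate 2. rpl-38 was not called without replicate 1 of the triple mutant (limma adjusted p = 0.0764), nor without replicate 2 of the triple mutant (limma adjusted p = 0.0892). Translation factors had 1 rise (ife-5) and 2 falls among 67 (4.48%). Translation factor counts with replicate 1 and replicate 2 of the triple mutant and replicate 1 and replicate 2 of meg-3 meg-4 left out in turn were 0, 0, 1 and 1 higher and 0, 1, 3 and 5 lower, and 0 higher and 1 lower with scaling to library totals and 0 higher and 2 lower with scaling to miRNA reads. The falls were at iff-2, for the elongation factor eIF5A, with 73.5 and 88.6 in the triple mutant against 273 and 429 in meg-3 meg-4 (log2 fold change −2.07, SE 0.36, limma adjusted p = 0.0014), and at eef-1A.1 (−1.49, and −0.81 without replicate 2 of meg-3 meg-4). iff-2, eef-1A.1 and ife-5 were not called without replicate 1 of the triple mutant (limma adjusted p = 0.118, 0.319 and 0.239), and eef-1A.1 and ife-5 not without replicate 2 of the triple mutant (limma adjusted p = 0.372 and 0.467). eef-1A.1 was not called without replicate 2 of meg-3 meg-4 (limma adjusted p = 0.0597).

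Further lists held a few changed members each. Of 15 innate immune genes 1 rose and 4 fell (33.3% called, beside 4.3% higher and 3.44% lower over all loci tested). Innate immune counts with replicate 1 and replicate 2 of the triple mutant and replicate 1 and replicate 2 of meg-3 meg-4 left out in turn were 0, 0, 0 and 1 higher and 0, 0, 6 and 3 lower, and 0 higher and 4 lower with scaling to library totals and 0 higher and 4 lower with scaling to miRNA reads. The falls included zip-2, for a bZIP transcription factor of the pathogen response, with 192 and 197 in the triple mutant against 681 and 772 in meg-3 meg-4 (log2 fold change −1.89, SE 0.33, limma adjusted p = 0.00128), and C29F9.1 and B0284.2, later named pals-22 (−1.62) and pals-27 (−2.06). The rise was at tir-1, for an adaptor protein of that response (1.39). zip-2, C29F9.1, B0284.2 and tir-1 were not called without replicate 1 of the triple mutant (limma adjusted p = 0.0848, 0.3, 0.0656 and 0.118), nor without replicate 2 of the triple mutant (limma adjusted p = 0.0692, 0.345, 0.0592 and 0.999). tir-1 was not called without replicate 1 of meg-3 meg-4 (limma adjusted p = 0.0543). B0284.2 was high enough to be tested only with both libraries of meg-3 meg-4 included. Detoxification genes had 4 rises and 0 falls among 25 (16%). Detoxification counts with the libraries left out in that order were 2, 3, 3 and 4 higher and 0, 0, 1 and 1 lower, and 1 higher and 0 lower with scaling to library totals. The glutathione transferase gene gst-43 had 64.7 and 93.2 in the triple mutant against 11.6 and 14.1 in meg-3 meg-4 (log2 fold change 2.51, SE 0.34, limma adjusted p = 1.3e-04) and was called whichever library was left out, as was the glucuronosyltransferase gene ugt-22 (2.75, and 1.75 without replicate 1 of meg-3 meg-4). However, ugt-22 was not called with scaling to library totals, and its adjusted p in the authors' deposited table was 0.205. At dhs-9 the triple mutant libraries were far apart, with 699.7 and 51.3 in the triple mutant against 15.2 and 29.2 in meg-3 meg-4 (3.11, and 1.24 without replicate 1 of the triple mutant and 4.98 without its replicate 2). dhs-9 was not called without replicate 1 of the triple mutant (limma adjusted p = 0.484), nor without replicate 1 of meg-3 meg-4 (limma adjusted p = 0.244). dhs-9 was not called without replicate 2 of meg-3 meg-4 (limma adjusted p = 0.0889). Muscle and sarcomere genes had 2 rises and 1 fall among 15 (20%). The fall was at unc-73, with 7.50 and 7.63 in the triple mutant against 31.5 and 31.8 in meg-3 meg-4. Its log2 fold change was −1.93 (SE 0.34, limma adjusted p = 0.00153), and −1.94 to −1.92 with each library left out in turn. Muscle gene counts with the libraries left out in that order were 1, 2, 2 and 2 higher and 2, 2, 4 and 2 lower, and 2 higher and 2 lower with scaling to miRNA reads. The rises were at unc-87, for a calponin-like actin bundler, with 47.4 and 89.4 in the triple mutant against 8.38 and 14.5 in meg-3 meg-4 (log2 fold change 2.45, SE 0.38, limma adjusted p = 5.2e-04), and at dys-1, the dystrophin gene, with 423 and 247 in the triple mutant against 59 and 97.6 in meg-3 meg-4 (log2 fold change 2.08, SE 0.39, limma adjusted p = 0.00245). dys-1 was not called without replicate 1 of the triple mutant (limma adjusted p = 0.264). Of 9 body size and TGF-beta genes, lon-8 and tig-2, which encodes a ligand of the TGF-beta family, fell, the second with 20.7 and 19.07 in the triple mutant against 45.5 and 76.5 in meg-3 meg-4 (log2 fold change −1.52, SE 0.35, limma adjusted p = 0.0108), and 0 rose (22.2% called). Body size counts with the libraries left out in that order were 1, 0, 0 and 2 higher and 1, 1, 2 and 2 lower. tig-2 was not called without replicate 1 of the triple mutant (limma adjusted p = 0.22), nor without replicate 2 of the triple mutant (limma adjusted p = 0.331).

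The nuclear hormone receptors had 1 rise (nhr-61, 2.50) and 2 falls (nhr-84, −1.87, and nhr-64, −1.71) among 24 (12.5% called, beside 4.3% higher and 3.44% lower over all loci tested). Hormone receptor counts with replicate 1 and replicate 2 of the triple mutant and replicate 1 and replicate 2 of meg-3 meg-4 left out in turn were 1, 0, 1 and 1 higher and 1, 0, 4 and 2 lower, and 0 higher and 1 lower with scaling to library totals and 0 higher and 1 lower with scaling to miRNA reads. nhr-84 was not called without replicate 1 of the triple mutant (limma adjusted p = 0.122), and nhr-61, nhr-84 and nhr-64 not without replicate 2 of the triple mutant (limma adjusted p = 0.932, 0.202 and 0.953). nhr-61 and nhr-64 were not called without replicate 1 of meg-3 meg-4 (limma adjusted p = 0.159 and 0.313), and nhr-61 not without replicate 2 of meg-3 meg-4 (limma adjusted p = 0.0886). With replicate 2 of the triple mutant left out the log2 fold change was 1.14 at nhr-61 and −1.04 at nhr-64. It was 3.87 at nhr-61 without replicate 1 of the triple mutant and −0.97 at nhr-64 without replicate 1 of meg-3 meg-4. Chemoreceptor genes had 1 rise (sru-17, 3.46) and 1 fall (srh-171, −3.88) among 9, sperm genes 1 rise (spe-47, 1.34) and 1 fall (spe-41, −1.24) among 9, and kinesin and spindle genes 1 rise (klp-20) and 1 fall (klp-8, −1.85) among 63 (3.17%). Kinesin and spindle counts with the libraries left out in that order were 0, 1, 2 and 1 higher and 0, 1, 1 and 12 lower. Chemoreceptor counts with the libraries left out in that order were 0, 0, 1 and 3 higher and 1, 1, 2 and 1 lower. Sperm gene counts with the libraries left out in that order were 0, 0, 3 and 1 higher and 0, 0, 1 and 0 lower, and 0 higher and 0 lower with scaling to library totals and 0 higher and 0 lower with scaling to miRNA reads. spe-47, spe-41, klp-8 and klp-20 were not called without replicate 1 of the triple mutant (limma adjusted p = 0.246, 0.405, 0.281 and 0.276), and spe-47 and spe-41 not without replicate 2 of the triple mutant (limma adjusted p = 0.943 and 0.485). spe-41 was not called without replicate 2 of meg-3 meg-4 (limma adjusted p = 0.0778). sru-17 was high enough to be tested only with both libraries of the triple mutant included. Zinc finger genes had 2 rises (ztf-13, 1.48, or 0.98 without replicate 1 of meg-3 meg-4, and T20H4.2, later named ztf-31, 1.47) and 1 fall, Y55F3AM.14, among 21. Hedgehog-related genes had 1 rise (grl-18, 3.60) among 8, and C-type lectins 1 rise (clec-157, 1.56) among 6. ztf-13, T20H4.2 and clec-157 were not called without replicate 1 of the triple mutant (limma adjusted p = 0.15, 0.0998 and 0.639), nor without replicate 2 of the triple mutant (limma adjusted p = 0.301, 0.547 and 0.0542). grl-18 was high enough to be tested only with replicate 2 of the triple mutant included. Zinc finger counts with the libraries left out in that order were 0, 0, 2 and 2 higher and 1, 1, 2 and 1 lower, and 0 higher and 1 lower with scaling to library totals and 0 higher and 1 lower with scaling to miRNA reads. Hedgehog-related counts with the libraries left out in that order were 2, 0, 1 and 1 higher. C-type lectin counts with the libraries left out in that order were 0, 0, 1 and 1 higher and 0, 0, 1 and 0 lower, and 0 higher and 0 lower with scaling to library totals and 0 higher and 0 lower with scaling to miRNA reads. The list of oocyte and maternal genes, put together by gene name, had 1 fall among 39, at the Pumilio gene puf-9 (−1.83). Heat shock and chaperone genes had 1 fall among 38, at dnj-24 (−2.16), and genes of germ line proliferation and sex 1 fall among 35, at the dosage compensation gene sdc-1 (−1.41). puf-9 and sdc-1 were not called without replicate 1 of the triple mutant (limma adjusted p = 0.0998 and 0.665), nor without replicate 2 of the triple mutant (limma adjusted p = 0.066 and 0.116). sdc-1 was not called without replicate 2 of meg-3 meg-4 (limma adjusted p = 0.0893). puf-9 was high enough to be tested only with replicate 2 of meg-3 meg-4 included. The lists of these 3 genes had 2.56%, 2.63% and 2.86% of their members called. Oocyte gene counts with the libraries left out in that order were 0, 0, 1 and 5 lower. Heat shock counts with the libraries left out in that order were 0, 0, 1 and 0 higher and 1, 1, 1 and 6 lower. Germ line proliferation counts with the libraries left out in that order were 0, 0, 4 and 1 lower, and 0 higher and 0 lower with scaling to library totals and 0 higher and 0 lower with scaling to miRNA reads. Meiosis genes (48 tested), proteasome genes (29), histones (22) and lipid and mitochondrial genes (37) had 0 calls by limma. At an unadjusted p under 0.05 limma gave 1 higher and 0 lower of the meiosis genes, 0 higher and 0 lower of the proteasome genes, 2 higher and 1 lower of the histones and 0 higher and 4 lower of the lipid and mitochondrial genes. Of the histones edgeR called 0 higher and 1 lower and DESeq2 1 higher and 1 lower, and neither tool called a member of the other 3 lists. Meiosis gene counts with the libraries left out in that order were 0, 0, 0 and 1 lower. Proteasome counts with the libraries left out in that order were 0, 0, 0 and 5 lower. Histone counts with the libraries left out in that order were 0, 0, 2 and 2 higher and 0, 0, 1 and 0 lower. Lipid and mitochondrial counts with the libraries left out in that order were 0, 0, 0 and 2 higher and 0, 0, 2 and 0 lower.

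**Figure D4:**
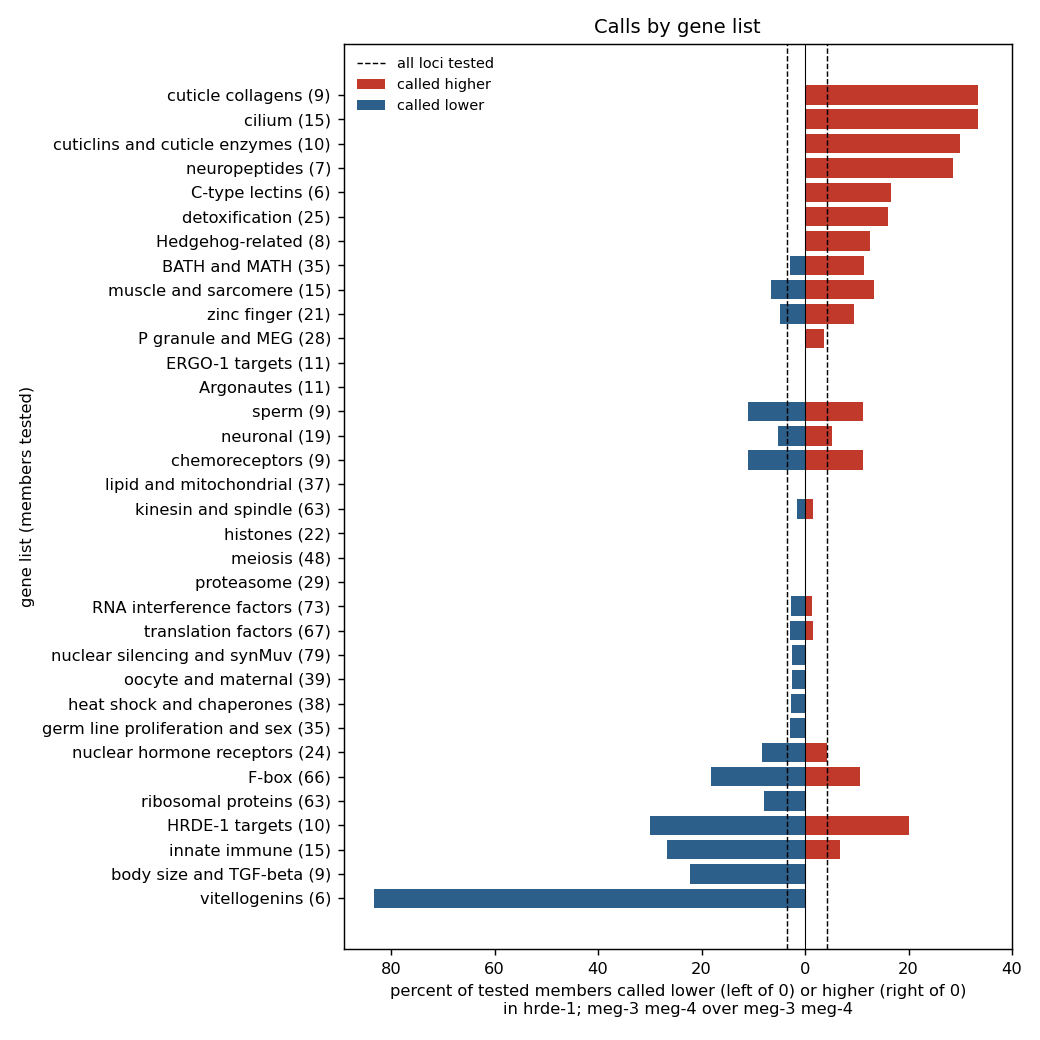
Share of the tested members of each gene list (vertical axis, number tested in brackets) called higher (red, right of 0) or lower (blue, left of 0) in the triple mutant, set against meg-3 meg-4, in percent, with dashed lines at 4.3% higher and 3.44% lower over all loci tested. Cilium genes and collagens extend farthest to the right and vitellogenins farthest to the left, each on 15 or fewer tested genes.

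By annotation class, protein-coding genes made up 5134 of the loci tested, with 209 higher and 180 lower (7.58% called, beside 7.75% of all loci, 4.3% higher and 3.44% lower). Protein-coding counts with replicate 1 and replicate 2 of the triple mutant and replicate 1 and replicate 2 of meg-3 meg-4 left out in turn were 106, 91, 245 and 387 higher and 86, 90, 323 and 339 lower. 21U-RNAs are the piRNAs of C. elegans, each made from its own short precursor. Of 416 tested 21U loci 18 rose and 1 fell (median 0.38, 4.57% called), with summed signals of 36716 and 30795 in the triple mutant against 22468 and 28609 in meg-3 meg-4. At 21ur-1242 the signal was 33.2 and 19.9 in the triple mutant against 9.47 and 6.20 in meg-3 meg-4 (log2 fold change 1.62, SE 0.39, limma adjusted p = 0.0141) and at 21ur-5141 141 and 105 in the triple mutant against 40.1 and 50.9 in meg-3 meg-4 (log2 fold change 1.41, SE 0.35, limma adjusted p = 0.0191). The rises numbered 0 with either triple mutant library left out, 28 without replicate 1 of meg-3 meg-4 and 54 without replicate 2, and 0 with scaling to library totals or to miRNA reads. Of 118 miRNAs 2 rose and 1 fell (2.54%). The miRNA counts with the libraries left out in that order were 2, 1, 2 and 8 higher and 1, 1, 3 and 0 lower, and 1 higher and 0 lower with scaling to library totals. mir-8191 had 18.6 and 74.6 in the triple mutant against 4.19 and 3.10 in meg-3 meg-4 (log2 fold change 3.06, SE 0.52, limma adjusted p = 0.00105), mir-2209.1 had 70.9 and 138 in the triple mutant against 22.5 and 33.5 in meg-3 meg-4 (1.81) and mir-2214 had 26.4 and 63.6 in the triple mutant against 109 and 853 in meg-3 meg-4 (−2.87). The values of mir-2214 in the 2 libraries of meg-3 meg-4 lay far apart, and its log2 fold change was −1.39 without replicate 2 and −4.34 without replicate 1. mir-2209.1 was not called without replicate 2 of the triple mutant (limma adjusted p = 0.446), and mir-2214 not without replicate 2 of meg-3 meg-4 (limma adjusted p = 0.0795). mir-8191 was high enough to be tested only with replicate 2 of the triple mutant included. Noncoding RNAs without a further class had 9 rises and 13 falls among 126 (17.5%). Noncoding RNA counts with the libraries left out in that order were 6, 2, 10 and 13 higher and 9, 7, 25 and 9 lower. F27C1.18 had 24.3 and 25 in the triple mutant against 325 and 404 in meg-3 meg-4 (log2 fold change −3.83, SE 0.34, limma adjusted p = 3.1e-06) and W03G1.8 had 2032 and 1867 in the triple mutant against 411 and 396 in meg-3 meg-4 (log2 fold change 2.27, SE 0.30, limma adjusted p = 1.1e-04), the groups being far apart in both. At Y102A5D.22, with 0.326 and 0.424 in the triple mutant against 28.6 and 37.4 in meg-3 meg-4 (−4.62), the triple mutant libraries held 2 and 1 reads. Y102A5D.22 was high enough to be tested only with replicate 2 of meg-3 meg-4 included. Pseudogenes had 5 rises and 7 falls among 65, long intergenic RNAs 2 and 2 among 34, snRNA loci 1 and 1 among 19, snoRNA loci 1 and 0 among 78, and antisense RNAs 0 and 0 among 5, where limma gave 0 higher and 1 lower at an unadjusted p under 0.05 and edgeR and DESeq2 0 calls. Loci not matched in the reference had 14 rises and 4 falls among 71 (25.4%). Pseudogene counts with the libraries left out in that order were 0, 1, 4 and 10 higher and 3, 4, 11 and 7 lower. Long intergenic RNA counts with the libraries left out in that order were 1, 0, 4 and 7 higher and 2, 0, 3 and 1 lower, and 1 higher and 1 lower with scaling to library totals. The snRNA counts with the libraries left out in that order were 0, 0, 1 and 3 higher and 1, 1, 2 and 0 lower, and 0 higher and 0 lower with scaling to library totals. The snoRNA counts with the libraries left out in that order were 0, 0, 1 and 6 higher and 0, 0, 4 and 0 lower, and 0 higher and 0 lower with scaling to library totals and 0 higher and 0 lower with scaling to miRNA reads. Unmatched locus counts with the libraries left out in that order were 7, 6, 16 and 25 higher and 4, 3, 12 and 11 lower, and 11 higher and 7 lower with scaling to library totals.

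Some of the changed loci lay side by side. Among 5984 pairs of neighbouring tested loci, 47 pairs were called in the same direction (0.785%) and 18 in opposite directions (0.301%). The 86 loci of the first kind formed 39 runs, and in 10 runs members overlap, where reads may be shared. The longest run held 5 protein-coding genes that rose, ZK250.13 (1.24), ZK250.14 (2.07), ZK250.2, math-49 and math-44 (2.08). In the middle of it, ZK250.2 had 124 and 125 in the triple mutant against 20.3 and 28.5 in meg-3 meg-4 (log2 fold change 2.32, SE 0.34, limma adjusted p = 3.1e-04). No members of this run overlap each other, and ZK250.2 and math-49 were called whichever library was left out. ZK250.13, ZK250.14 and math-44 were not called without replicate 1 of the triple mutant (limma adjusted p = 0.576, 0.209 and 0.0641), and ZK250.13 not without replicate 2 of the triple mutant (limma adjusted p = 0.695). A run of 3 falls held Y53F4B.17 and Y53F4B.18, described above, and the pseudogene Y53F4B.16 beside them, with 0.978 and 1.27 in the triple mutant against 9.78 and 39.9 in meg-3 meg-4 (−3.31). Y53F4B.16 was high enough to be tested only with replicate 2 of meg-3 meg-4 included. A second run of 3 falls held the F-box gene fbxa-150 (−1.25) and the pseudogenes fbxa-149 (−1.59) and dct-10, with 21.7 and 28 in the triple mutant against 98.4 and 125 in meg-3 meg-4 (log2 fold change −2.13, SE 0.34, limma adjusted p = 6.9e-04). fbxa-150, fbxa-149 and dct-10 were not called without replicate 1 of the triple mutant (limma adjusted p = 0.787, 0.325 and 0.101), and fbxa-150 and fbxa-149 not without replicate 2 of the triple mutant (limma adjusted p = 0.746 and 0.206). Y73B3A.1, with 11.1 and 10.2 in the triple mutant against 98 and 130.2 in meg-3 meg-4 (log2 fold change −3.29, SE 0.33, limma adjusted p = 9.5e-06), was followed by falls at the pseudogene Y73B3A.9 (−1.34) and at T08D2.7, later named chkr-1 (−2.86), although 16 and 5 annotated genes that were not tested lie between them. Y73B3A.9 was not called without replicate 1 of the triple mutant (limma adjusted p = 0.317), nor without replicate 2 of the triple mutant (limma adjusted p = 0.813). T08D2.7 was high enough to be tested only with replicate 2 of meg-3 meg-4 included. The remaining run of over 2 members was of 4 rising 21U loci, 21ur-3065, 21ur-6751, 21ur-1242 and 21ur-6506 (1.39, 1.35, 1.62 and 1.20). None of the 4 was called with either triple mutant library left out. Pairs included rde-11 and B0564.2, F15D4.5 and F15D4.6, and cec-8 with Y55B1BR.6 (−4.85), which had 1.63 and 1.27 in the triple mutant against 61.9 and 78.2 in meg-3 meg-4. Y55B1BR.6 and the members of other pairs were named after their values were seen.

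The loss of hrde-1 can also be followed in worms that carry MEG-3 and MEG-4. The authors' deposited table that sets hrde-1 against N2, the wild type, uses none of the 4 libraries compared so far. It called 15.9% of 13876 loci, 8.75% higher and 7.19% lower in hrde-1. These loci include many below the mean signal tested here. The share called among the loci tested here was not computed. Of all 261 rises that table called 200 higher (76.6%), 6 lower and 55 neither. Of the 208 falls with an adjusted p there it called 131 lower (63.0%), 11 higher and 66 neither. Of the 77 rises called whichever library was left out, that table called 73 higher, 2 lower and 2 neither. Of the 67 falls called whichever library was left out, it called 42 lower (62.7%), 4 higher and 21 neither. That the changes of both tables overlap was known from earlier results of these data. The 25 falls that it did not call lower included rde-11 and sid-1, B0564.2 and H25P19.1, the homeobox gene ceh-20, the calcineurin B homologue gene pbo-1, the thiolase gene kat-1, the choline kinase gene ckb-4, qdpr-1, which encodes a pteridine reductase, madf-5, madf-9, dnj-24 and the vitellogenin genes vit-2, vit-5 and vit-6, whose log2 fold changes were −1.31, −1.36 and −1.51 without replicate 2 of meg-3 meg-4, against −3.17, −3.05 and −3.40 with all libraries. These were named after their values were seen. The authors' deposited table gave −0.16 (adjusted p = 0.777) at rde-11 for hrde-1 over N2. At sid-1 it gave −0.25 (adjusted p = 0.612). For the triple mutant over N2 the authors gave 0.59 (adjusted p = 0.00475) at rde-11. The value at sid-1 was 0.44 (adjusted p = 0.0542). That comparison gave 0.70 at B0564.2 and 1.10 at H25P19.1, but −5.64 at Y53F4B.17. At ceh-20 the deposited signal was 230.2 and 216 in the triple mutant against 1007 and 1102 in meg-3 meg-4 (log2 fold change −2.24, SE 0.32, limma adjusted p = 2.4e-04), while the log2 fold change of hrde-1 over N2 in the authors' deposited table was −0.10 (adjusted p = 0.886). At qdpr-1 it was 503 and 511 in the triple mutant against 1385 and 2053 in meg-3 meg-4 (log2 fold change −1.73, SE 0.31, limma adjusted p = 0.00197), against −0.60 (adjusted p = 0.116) for hrde-1 over N2 by the authors' deposited table. At pbo-1 it was 21.8 and 21.2 in the triple mutant against 353 and 474 in meg-3 meg-4 (log2 fold change −4.19, SE 0.35, limma adjusted p = 1.4e-06), against −0.71 (adjusted p = 0.0893) for hrde-1 over N2 by the authors' deposited table. At each of these 3 genes the triple mutant lay clearly under meg-3 meg-4 in both libraries. Of the 4 falls called higher in hrde-1, the authors' deposited table gave log2 fold changes of 1.13 (adjusted p = 0.00197) at H25P19.1, 1.41 (adjusted p = 0.00256) at K10G9.2, 2.35 (adjusted p = 3.5e-10) at ZC190.8 and 1.79 (adjusted p = 1.1e-06) at C46F11.6. The 4 rises without a matching rise there were eri-6, C03A7.1, fbxa-10 and fbxa-60. For hrde-1 over N2 the authors' deposited table gave 0.04 (adjusted p = 0.957) at eri-6, 0.46 (adjusted p = 0.286) at C03A7.1, −0.73 (adjusted p = 0.0463) at fbxa-10 and −3.12 (adjusted p = 3.6e-14) at fbxa-60.

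The level of these loci in the hrde-1 single mutant itself fell into several patterns. For this view the recovered reads of all 6 libraries were scaled together with TMM and expressed as RPM, reads over the scaled size of the library, and the values are a description without a test. At H25P19.1 they were 100.5 and 81.1 in the triple mutant, 85.1 and 92.2 in hrde-1 and 2179 and 2649.9 in meg-3 meg-4. At B0564.2 they were 89.5 and 75 in the triple mutant, 34.3 and 43.3 in hrde-1 and 2279 and 3029.8 in meg-3 meg-4. Both strains that lack hrde-1 were thus low at these genes, and meg-3 meg-4 stood alone. The pair Y53F4B.17 and Y53F4B.18 was different. Y53F4B.17 had 5.06 and 18.7 RPM in the triple mutant, 437 and 567 in hrde-1 and 598 and 1438 in meg-3 meg-4, so that the triple mutant stood alone and the single mutant was close below meg-3 meg-4. At Y53F4B.18 the values were 8.67 and 10.3 in the triple mutant, 131 and 183 in hrde-1 and 151 and 425 in meg-3 meg-4, where the ranges of hrde-1 and meg-3 meg-4 overlapped. ZC190.8 had 13.6 and 8.44 in the triple mutant, 115 and 220.0 in hrde-1 and 76.6 and 75.5 in meg-3 meg-4, with the single mutant the highest of the 3 strains. Of the 25 falls, hrde-1 had both values under both of meg-3 meg-4 at 22, above both triple mutant libraries at 13 and below both at 9. Over all loci tested the same separations were seen at 21.5%, 31.2% and 22.6%. At the 25 falls meg-3 meg-4 is high and the triple mutant low by choice. They were also chosen for having no lower call in hrde-1 over N2, so nothing is read from these counts. At the F-box genes fbxa-10 and fbxa-60 the triple mutant was the high strain. fbxa-10 had 1816 and 1353 in the triple mutant, 103.1 and 137 in hrde-1 and 189 and 223 in meg-3 meg-4. fbxa-60 had 216 and 95.6 in the triple mutant, 4.07 and 7.80 in hrde-1 and 11.5 and 13.1 in meg-3 meg-4. At both, the hrde-1 single mutant was the lowest. At eri-6 the triple mutant held 9008 and 9789, hrde-1 2481 and 3322 and meg-3 meg-4 3254 and 3299.9. In contrast, T23B12.9 had 270.4 and 493 in the triple mutant, 1566 and 2278 in hrde-1 and 14.2 and 18.7 in meg-3 meg-4, with meg-3 meg-4 far below both strains that lack hrde-1.

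**Figure D5:**
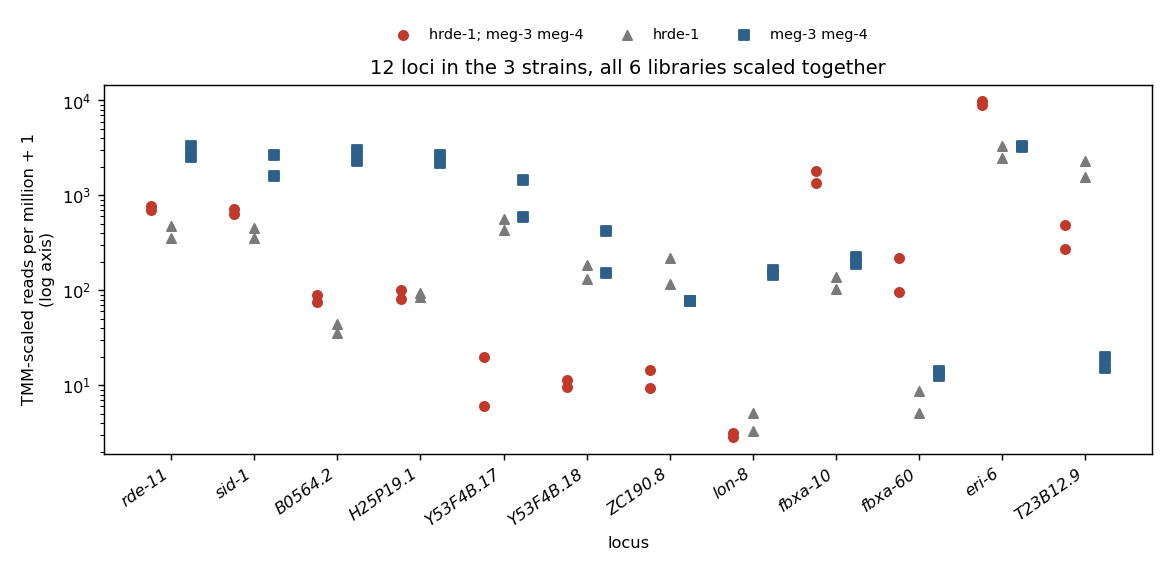
RPM + 1 after TMM scaling of all 6 libraries (vertical axis, log scale) at 12 loci chosen after their values were seen, with triple mutant libraries as red circles, hrde-1 as grey triangles and meg-3 meg-4 as blue squares. The 2 strains that lack hrde-1 both lie far below meg-3 meg-4 at B0564.2, H25P19.1 and lon-8, while at Y53F4B.17, Y53F4B.18, fbxa-10 and fbxa-60 the triple mutant lies apart from both other strains.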

How the data were processed

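Small RNA libraries of whole worms from 3 strains (2 each) were compared from 3 deposited tables of 42402 loci. Per the submitters' processing notes the authors used cutadapt, Bowtie2, HTSeq and DESeq2 with build ce10. Versions, settings, strand and the treatment of reads with several positions are not given in the sources used here. Per the file headers the deposited library values are a scaled signal in fpm. The deposited log2 fold changes and adjusted p-values are the authors' own. Columns of N2 libraries (4), of means (6) and of the triple mutant in a second table (2) were not used.

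Every signal value was a whole multiple of the smallest, within 0.001, in 100% of loci above 0, which gave reads per library of 2384147 to 6780320. The 2 libraries of a strain differed beyond sampling noise (chi-square over degrees of freedom 8.36 between the triple mutant libraries, 23.2 between those of meg-3 meg-4), so none was counted as a copy. limma 3.58.1 (R 4.3.3), with its trend option, was run on log2(signal + 1) at loci with a mean of at least 10, since the values turned out to be scaled signal and not counts, over the 4 libraries, with Benjamini-Hochberg adjustment over all loci tested. The fit was tested on simulated data with equal spread in both strains. The real strains differ in spread, so that test does not give the error rate of these calls. As alternatives, other scalings, pseudocounts of 0.5 and 5, filters, edgeR 4.0.16 and DESeq2 1.42.0 on recovered reads, a replicate block, all 6 libraries and each library left out were run.

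Classes, later names and neighbour order came from a reference annotation of another build for 41776 loci (626 unmatched), so no coordinates are given. Named loci were the genes of the title and the mutated genes, the 12 largest rises and falls called whichever library was left out at a mean of at least 50, the 8 called loci of highest signal in each direction, the 3 largest called changes in each direction per list or class, runs of 3 or more called neighbours, neighbours of rde-11 and sid-1, and the 5 highest loci at 0 reads in 1 strain. The loci, the 34 lists and the tests were chosen with earlier results of these data known. Reads carry no molecular identifiers, so floors cover counting error only.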

Additional observations from a re-analysis of the deposited data

How the results depend on the processing

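Left-out libraries moved the counts most, with 207 to 880 calls in all, 101 to 513 higher and 106 to 389 lower, against 470, 261 and 209. A minimum mean of 50 gave 276 calls (156 higher, 120 lower), where fewer loci are tested. With no filter 346 were lower and 354 higher, and scaling to library totals left 167 higher against 188 lower. The cause of the last 2 shifts was not tested. TMM, miRNA scaling, edgeR, DESeq2, both other pseudocounts and the fit over 6 libraries stayed within 1.5 times of each count. The replicate block gave 438 calls (238 higher, 200 lower). The replicate numbers pair nothing in the labels, and the deviations of same-numbered libraries correlated at −0.107. A crossed replicate block, chosen after seeing the data, gave 659 calls (346 higher, 313 lower). rde-11 lay between −2.27 and −1.82 and sid-1 between −2.09 and −1.27 in all settings, always called lower, also with the replicate block and its crossed form. The 138 named loci that were tested kept their direction in every setting that tested them. Leaving out a triple mutant library weakened or ended calls at more of them than leaving out a meg-3 meg-4 library. Calls at the 138 named loci were also weakened or lost with scaling to library totals (37) or miRNA reads (23), and with DESeq2 (22) or edgeR (16). The shallowest library, triple mutant replicate 2, limits what can be seen at low loci.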

Other observations

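Some loci had no reads in either library of one strain, below the mean signal needed for a test. In the triple mutant Y94A7B.2, not matched in the reference, held 0 and 0 reads, against 33 and 62 in meg-3 meg-4. The mean signal of meg-3 meg-4 was 9.73 times a floor of 3 reads per library in the triple mutant. Counting error and spread in the strain with reads are not part of this ratio, so it is not a lower bound. The same ratio was 4.1 at 21ur-10492, which overlaps F15D4.5 on the other strand. It was 3.64 at K09B11.5, 2.97 at mup-2, the troponin T gene, and 2.93 at the pseudogene F56B3.3. Reads at mup-2 in meg-3 meg-4 came mainly from replicate 2, with 5 and 23 reads in replicates 1 and 2. The 5 reads of replicate 1 stood for a signal below the floor, which was 0.88. Such floors cover counting error only, and only in the strain without reads.

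In the other direction, ZK228.10 held 44 and 17 reads in the triple mutant against 0 and 0 in meg-3 meg-4. Its mean signal in the triple mutant was 13.7 times a floor of 3 reads per library in meg-3 meg-4. The ratio was 9.65 at T11F9.21, 8.90 at abu-8, a gene of the prion-like abu family, 5.23 at F29C12.6 and 3.36 at ZC53.2. In the hrde-1 single mutant ZK228.10 held 50 and 73 reads and abu-8 held 27 and 25, while Y94A7B.2 held 0 and 0. These loci were chosen by their level in the strain that has reads, so the values are a description.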
